A study of Mus musculus with 6 samples.

Results

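The 9 transcription factors described here set or hold the identity of helper T cell lineages: Tbx21, Eomes, Gata3, Rora, Foxp3, Bcl6, Prdm1, Maf and Runx3. They were chosen by name, as a list of lineage factors, and matched by symbol to the Ensembl identifiers of the count table. All 9 were among its 48440 genes and all 9 were among the 13314 genes with enough reads to be tested. The cells were primary mouse CD4+ T cells from spleen and lymph nodes of wild-type animals. They had been activated on plate-bound antibodies to CD3 and CD28 for 3 days and expanded in IL2 for 5 days. The 3 unstimulated libraries came from such cells at rest, and the 3 stimulated libraries came from such cells given anti-CD3/CD28 again for 4 h, which engages the T cell receptor and its costimulator. Both groups therefore hold expanded, previously activated cells rather than naive ones, and the labels name no polarising cytokine other than the IL2 and give neither the strain nor the age of the animals.

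A naive CD4+ T cell that meets antigen can become one of several kinds of helper cell, and each kind is tied to a lead transcription factor. T-bet (Tbx21) drives Th1 cells, which make interferon gamma, and its relative eomesodermin (Eomes) serves cytotoxic and memory cells. GATA3 drives Th2 cells, RORα (Rora) serves Th17 cells, FOXP3 defines regulatory T cells, and BCL6 defines follicular helper cells and is opposed by BLIMP-1 (Prdm1). c-MAF (Maf) and RUNX3 act across lineages, the former on Il4, Il10 and Il21 and the latter beside T-bet on Ifng and against Il4. These factors often restrain each other, so their relative levels are commonly read as a sign of lineage.

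The 6 libraries held between 29897720 and 30252923 counted reads each. All 9 helper T cell markers examined, Cd4 and the CD3 chains among them, were present in every library and all 9 fell on stimulation, their sum going from between 4484 and 4844 CPM (a gene's reads per 1000000 counted reads, after scaling) to between 2268 and 2277 CPM. In bulk RNA, fewer cells of a type and less RNA per cell cannot be told apart. All 8 natural killer cell markers were under 1 CPM in every library. B cell transcripts were present: the sum of 9 B cell markers ranged from 1411 to 2865 CPM in the unstimulated and from 742 to 1287 CPM in the stimulated libraries, most of it Ighm. P-values below set the difference between the groups against the spread between these libraries, which the submitters call biological replicates. They treat the libraries as unpaired unless stated otherwise.

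Of the 9 factors, 5 rose (Tbx21, Eomes, Gata3, Foxp3 and Bcl6), 1 fell (Prdm1) and 3 (Rora, Maf and Runx3) were not called at an adjusted p of 0.05 in edgeR's quasi-likelihood test over all genes. That is 66.7% of the factors, beside 77.5% of all genes tested, of which 38.4% rose and 39.1% fell. When a change of more than 2-fold was required, 1 of the 9, Tbx21, was called, or 11.1%, against 35.6% of all genes tested. The median size of the change, without its sign, was 0.48 on the log2 scale for the factors and 0.90 for all genes tested. The groups did not overlap for 5 of the 9 factors, 4 higher and 1 lower after stimulation, where among all genes tested the shares were 79.8% in either direction, 39.4% higher and 40.4% lower. The median log2 fold change was 0.30 for the factors and -0.04 for all genes, and scaling by library size alone moved that second median by -0.14, to -0.18.

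**Figure D1:**
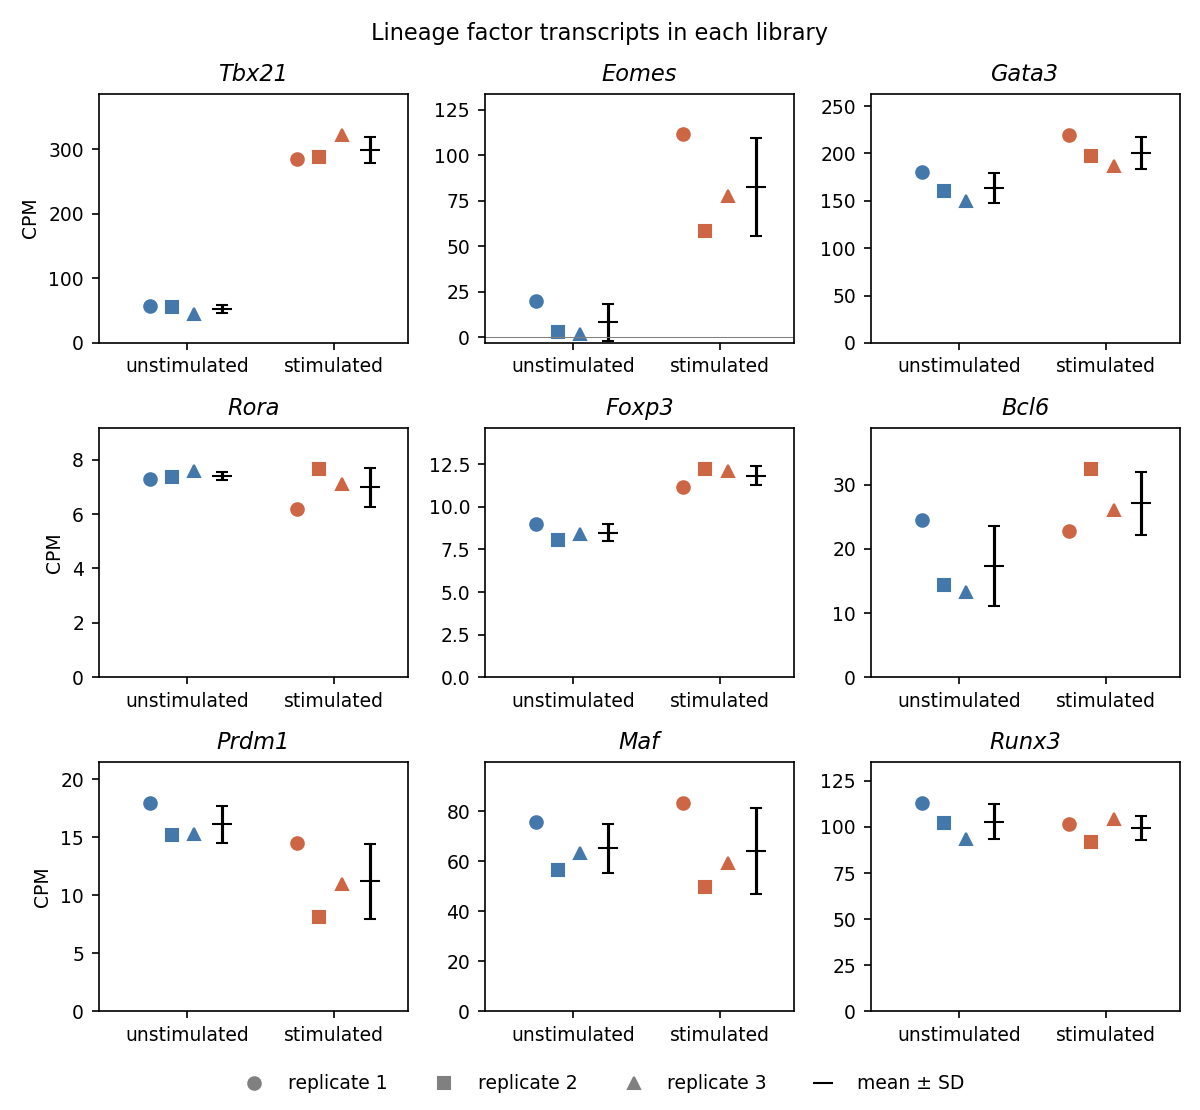
Level of each factor in CPM in each of the 6 libraries, with the mean and SD of each group (n = 3) beside the points. Tbx21 lies between 45.4 and 56.9 CPM at rest and between 285 and 322 CPM after stimulation, while the points of the groups overlap for Rora, Bcl6, Maf and Runx3.

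Tbx21 (ENSMUSG00000001444, chr11:97098071-97115331, minus strand, GRCm38) encodes T-bet and had the smallest p of the 9. It stood at 56.9, 55.5 and 45.4 CPM in unstimulated replicates 1, 2 and 3 and at 285, 289 and 322 CPM in the stimulated ones. Every stimulated library was far above every unstimulated one, and replicates lay close together in both groups. The rise was 5.68-fold (log2 fold change 2.51, SE 0.10, edgeR adjusted p = 4.6e-08) and held as a change of more than 2-fold. It was called under all 17 alternative fits (other scalings, filters and tools, and libraries left out), where the log2 fold change ran from 2.36 to 2.60.

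Eomes (ENSMUSG00000032446, chr9:118478212-118486132, plus strand) encodes the T-box factor closest to T-bet in T cell function. Its resting level was low and uneven, at 19.6, 2.78 and 1.70 CPM, and it stood at 112, 58.2 and 77.9 CPM after stimulation. Unstimulated replicate 1 held 616 Eomes reads where replicates 2 and 3 held 88 and 54, yet the lowest stimulated library remained well above it. The coefficient of variation among resting libraries was 125%, beside a median of 8.35% for tested genes of at least 1 CPM. The fold change was 10.3 (log2 3.36, SE 0.95, edgeR adjusted p = 0.022), and the test for more than 2-fold missed the threshold (adjusted p = 0.060). Without unstimulated replicate 1 the fold was 36.9 (edgeR adjusted p = 1.6e-04), without both libraries numbered 1 it was 30.5, and with limma-voom on all libraries it was 17.6. The call was lost without unstimulated replicate 3 (edgeR adjusted p = 0.053), without stimulated replicate 1 (0.083), without both libraries numbered 2 (0.080) or 3 (0.097) and with no filter on low counts (0.062), within a range over the alternatives of 1.7e-06 to 0.097.

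Natural killer cells, CD8 T cells and gamma-delta T cells are also known for Eomes. The 8 natural killer markers summed to between 0.318 and 0.695 CPM at rest and to between 0.207 and 0.351 CPM after stimulation, each marker under 1 CPM in every library. The sum of 5 CD8 T cell markers ran from 22.8 to 26.6 CPM at rest and from 28.9 to 34.1 CPM after stimulation, with no overlap. Of these, Cd8a rose (3.63 to 4.20 CPM at rest, 7.86 to 8.68 CPM after stimulation), as did Crtam (1.21 to 2.11 CPM and 8.17 to 9.69 CPM). Cd8b1, the most abundant, fell (17.2 to 20.6 CPM and 12.9 to 17.2 CPM), and Gzmk was at 0 in all 3 stimulated libraries. Gamma-delta T cell markers, 6 in number, summed to at most 19.3 CPM at rest and 10.1 CPM after stimulation. The part of these cells in the Eomes difference was not tested.

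The promoter windows of both T-box genes are shown because these are the factors with the largest increases. Each window holds the 250 bases before the RefSeq start on the gene's own strand, from RefSeq on GRCm38.p6, and was searched on both strands for short words bound by factors of T cell receptor signalling: GGAAA (NFAT), TGANTCA (AP-1) and TGACGTCA (CRE). The search also took in GGTGTGA (T-box), TGTGGT (RUNX) and the core promoter word TATAAA. Capitals mark a match.
Tbx21, chr11:97115332-97115581, minus strand: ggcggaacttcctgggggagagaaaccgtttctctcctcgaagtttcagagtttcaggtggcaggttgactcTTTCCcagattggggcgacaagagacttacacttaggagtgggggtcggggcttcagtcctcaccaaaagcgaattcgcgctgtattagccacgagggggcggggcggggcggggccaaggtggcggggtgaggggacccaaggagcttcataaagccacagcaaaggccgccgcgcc
Eomes, chr9:118477939-118478188, plus strand: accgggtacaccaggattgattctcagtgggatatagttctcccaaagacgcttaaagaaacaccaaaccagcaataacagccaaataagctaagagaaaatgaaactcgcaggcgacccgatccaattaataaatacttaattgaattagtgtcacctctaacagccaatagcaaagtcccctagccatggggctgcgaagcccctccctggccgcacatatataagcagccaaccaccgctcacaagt
The Tbx21 window held 1 match, TTTCC, which is GGAAA read on the other strand, 178 to 174 bases before the start. GGAAA or its reverse complement occurs in 55.6% of the 32851 promoter windows of that length, so a match is common. The Eomes window held none of the 6 words. A match is a string of letters and not a measured binding site.

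Gata3 (ENSMUSG00000015619, chr2:9857078-9890034, minus strand), the Th2 lead factor, was the most abundant of the 9 at rest by reads and by length-normalised level. It stood at 180.5, 161 and 149.9 CPM at rest and at 219, 197 and 186 CPM after stimulation. The groups did not overlap, but the highest resting library (180 CPM in replicate 1) lay just under the lowest stimulated one (186 CPM in replicate 3). The rise was 1.23-fold (log2 0.30, SE 0.0912, edgeR adjusted p = 0.015). It was not called with library size alone as the scaling (log2 0.16, edgeR adjusted p = 0.11), without unstimulated replicate 2 (0.061), without stimulated replicate 1 (0.051) or without both libraries numbered 2 (0.11), within a range over the alternatives of 0.00044 to 0.11.

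Foxp3 (ENSMUSG00000039521, chrX:7573644-7595245, plus strand), the regulatory T cell factor, was low in both groups. It stood at 9.0, 8.06 and 8.42 CPM at rest and at 11.2, 12.2 and 12.1 CPM after stimulation, with every stimulated library above every resting one. Replicates agreed closely, with a coefficient of variation of 5.61% at rest and 4.76% after stimulation. The rise was 1.39-fold (log2 0.48, SE 0.10, edgeR adjusted p = 0.0023), and it was called in 16 of 17 alternatives, the exception being the fit without both libraries numbered 2 (edgeR adjusted p = 0.060, range over the alternatives 0.00049 to 0.060).

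The Foxp3 locus is crowded, and the strand setting of the counting is not given in the sources used here. Flicr (chrX:7573600-7581027), a noncoding gene at the 5′ end of Foxp3 that is annotated on the same strand, shares 853 exon bases with it, so reads there could be assigned to either or to neither. Flicr was picked out after its values were seen. It had 166, 152 and 133 reads in the unstimulated and 38, 34 and 32 reads in the stimulated libraries. It fell (log2 -1.97, SE 0.19, edgeR adjusted p = 1.1e-05) while Foxp3 rose. The ratio of Foxp3 to Flicr reads was 1.70, 1.68 and 2.02 at rest and 8.32, 10.2 and 11.0 after stimulation, with no overlap (two-sided exact permutation p = 0.1, the smallest that 3 against 3 allows). On the opposite strand, exons of Ppp1r3f, Gm36995 and Ccdc22 share 266, 373 and 590 bases with Foxp3. The other 8 factors had no overlapping gene in the count table with more than 6 reads in a library.

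Bcl6 (ENSMUSG00000022508, chr16:23965052-23988852, minus strand) encodes a repressor that directs follicular helper cells. It stood at 24.5, 14.4 and 13.2 CPM at rest and at 22.8, 32.4 and 26.1 CPM after stimulation. Resting replicate 1 lay above stimulated replicate 1, so the groups overlapped, whereas the other two resting libraries lay below all stimulated ones. The difference was 1.56-fold (log2 0.64, SE 0.25) and was called narrowly (edgeR adjusted p = 0.045). Without unstimulated replicate 1 the log2 fold change was 0.98 (edgeR adjusted p = 3.1e-04). Among the fits in which the call was lost were those without unstimulated replicate 2 (edgeR adjusted p = 0.13) or 3 (0.16), without stimulated replicate 2 (0.13) or 3 (0.082), without both libraries numbered 2 (0.29) or 3 (0.24), with library size alone (0.090) and with no filter (0.18), within a range over the alternatives of 2.6e-06 to 0.29.

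Prdm1 (ENSMUSG00000038151, chr10:44437177-44528501, minus strand) encodes BLIMP-1, a repressor that drives terminal effector and plasma cell differentiation and counters Bcl6. It stood at 17.9, 15.2 and 15.2 CPM at rest and at 14.5, 8.11 and 11.0 CPM after stimulation. All stimulated libraries were lower than all resting ones, although stimulated replicate 1 was close beneath them. It was the only factor of the 9 to fall, by 1.44-fold (log2 -0.52, SE 0.19, edgeR adjusted p = 0.035). The fall was not called without unstimulated replicate 1 (edgeR adjusted p = 0.090), 2 (0.057) or 3 (0.051), without stimulated replicate 2 (0.088) or 3 (0.092), or without both libraries numbered 2 (0.12) or 3 (0.15), within a range over the alternatives of 0.0012 to 0.15.

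Bcl6 and Prdm1 also serve B cells and plasma cells, whose transcripts were present. The sum of 9 B cell markers was 1411, 1908 and 2865 CPM in resting replicates 1, 2 and 3, nearly all of it Ighm. Other markers of the list had another order at rest: Ms4a1 stood at 13.9, 12.8 and 10.1 CPM and Pax5 at 4.96, 4.20 and 3.96 CPM, highest in replicate 1 as Bcl6 was. Of the 9 markers, 6 fell, 1 rose and 2 were not called. The sum of 6 plasma cell markers was 236, 314 and 477 CPM at rest and 303, 341 and 448 CPM after stimulation, so it overlapped between the groups. The list went both ways: 2 markers rose, Sdc1 (from 1.72 to 4.49 CPM at rest and from 9.62 to 13.2 CPM after stimulation) and Xbp1 (68.4 to 80.9 CPM and 173 to 198 CPM), 1 fell, Derl3, and Jchain and Mzb1 were not called. Tnfrsf17 was at 0 in all 3 stimulated libraries. The part of these cells in the 2 differences was not tested.

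The Prdm1 window is shown for contrast with the T-box genes, as the one factor that fell. It lies within the annotated gene, upstream of an internal RefSeq start.
Prdm1, chr10:44458749-44458998, minus strand: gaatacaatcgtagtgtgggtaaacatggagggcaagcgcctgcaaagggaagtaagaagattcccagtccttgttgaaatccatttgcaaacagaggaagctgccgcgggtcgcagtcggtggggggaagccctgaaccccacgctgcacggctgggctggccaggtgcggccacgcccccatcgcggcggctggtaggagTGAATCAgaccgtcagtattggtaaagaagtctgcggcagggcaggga
It held 1 match to TGANTCA, the AP-1 word, as TGAATCA 48 to 42 bases before the start, where 6.75% of all windows hold that word. Of the 9 factors, 8 had 1 or more RefSeq windows and 11 windows were searched in all. No other factor's window held the AP-1 word, the CRE word or the T-box word.

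**Figure D2:**
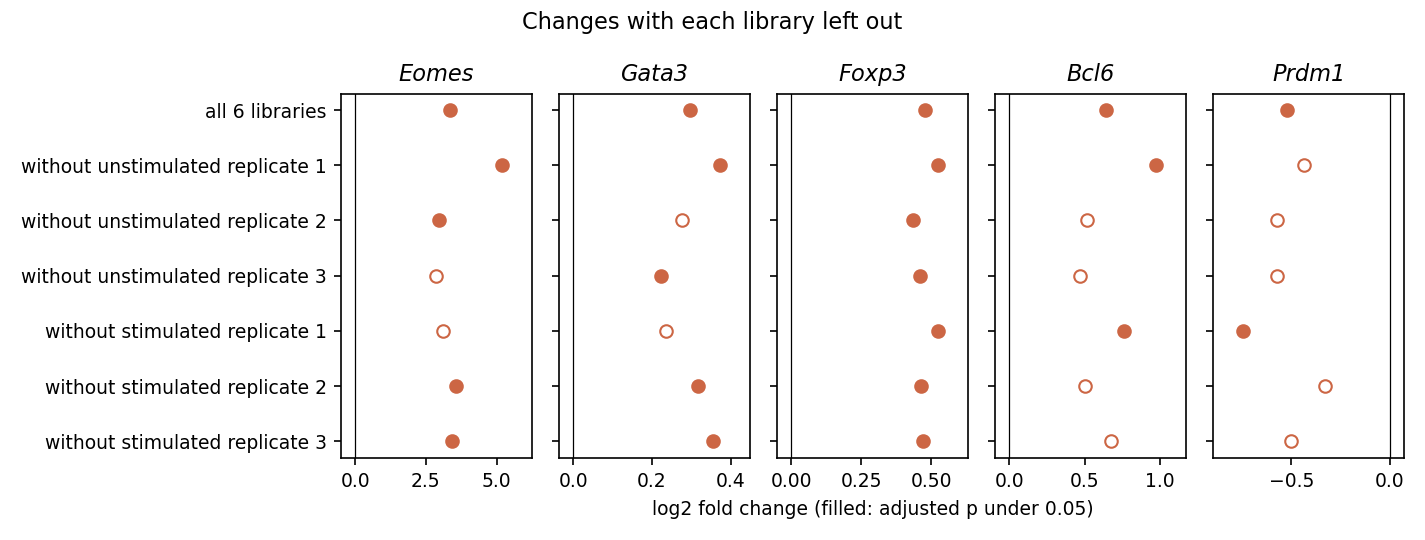
Log2 fold change of 5 factors with all 6 libraries and with each library left out in turn, filled where the edgeR adjusted p is under 0.05. Foxp3 stays called throughout, while Eomes, Gata3, Bcl6 and Prdm1 each lose the call in at least 2 of the 6 fits and keep their direction in all of them.

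Rora (ENSMUSG00000032238, chr9:68653786-69388246, plus strand), which encodes RORα, was the lowest of the 9 by length-normalised level. It stood at 7.29, 7.36 and 7.57 CPM at rest and at 6.20, 7.65 and 7.10 CPM after stimulation, with overlapping groups (log2 -0.08, SE 0.13, edgeR adjusted p = 0.55). Maf (ENSMUSG00000055435, chr8:115682942-115707794, minus strand), which encodes c-MAF, stood at 75.7, 56.6 and 63.1 CPM at rest and at 83.0, 49.7 and 59.3 CPM after stimulation. In both groups replicate 1 was its highest library and replicate 2 its lowest, so that the spread within a group was larger than the difference between the means (log2 -0.03, SE 0.19, edgeR adjusted p = 0.91). Runx3 (ENSMUSG00000070691, chr4:135120652-135177990, plus strand), the RUNX factor of Th1 and cytotoxic cells, stood at 113, 102 and 93.7 CPM at rest and at 102, 91.9 and 105 CPM after stimulation. Its groups overlapped as well (log2 -0.05, SE 0.0868, edgeR adjusted p = 0.61). None of these 3 was called under any of the 17 alternatives, where adjusted p-values of edgeR, limma and DESeq2 ran from 0.068 upward.

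**Figure D3:**
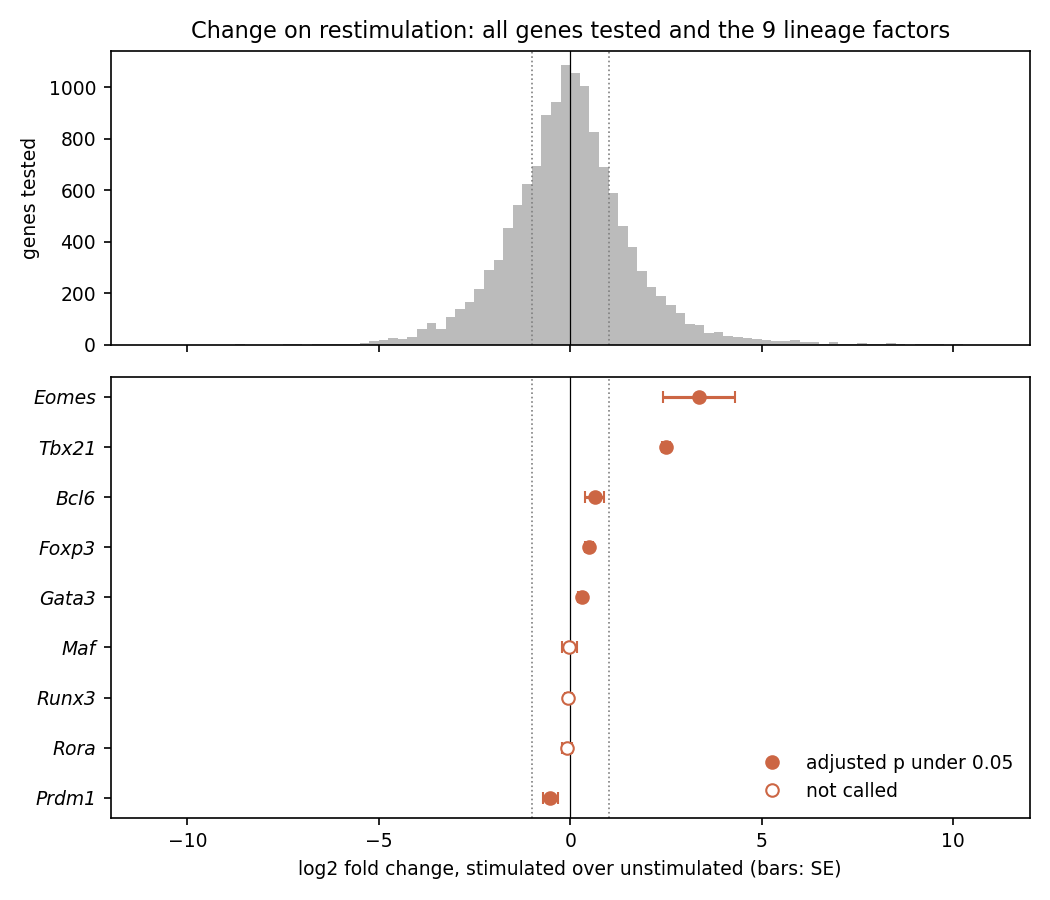
Top, the distribution of log2 fold changes of the 13314 genes tested; bottom, the log2 fold change of each factor with its SE, filled where the edgeR adjusted p is under 0.05, and dotted lines at a 2-fold change. Apart from Tbx21 and Eomes, the 7 factors lie inside the dotted lines.

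Unstimulated replicate 1 was the highest resting library for 8 of the 9 factors, Rora being the exception, while 37.5% of all genes tested were highest in it. In the stimulated group, replicate 1 was highest for 4 factors, replicate 2 for 3 and replicate 3 for 2.

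Levels of different genes were compared as CPM per kb of annotated exon. At rest Gata3 led with 41.1 ± 3.90 (SD, n = 3), followed by Tbx21 at 21.1 ± 2.52 and Runx3 at 20.6 ± 1.91, whose ranges overlapped. Maf followed at 7.90 ± 1.18 and stood apart from both neighbours. Prdm1 (2.89 ± 0.280), Bcl6 (2.59 ± 0.926), Eomes (1.93 ± 2.42) and Foxp3 (1.86 ± 0.104) overlapped from each to the next, and Rora came last by mean at 0.567 ± 0.0114, inside the Eomes range of 0.408 to 4.72. After stimulation Tbx21 led with 120.1 ± 8.15, above Gata3 at 50.5 ± 4.24. Eomes and Runx3 shared the next place at 19.9 ± 6.51 and 19.9 ± 1.33, with overlapping ranges. Below them lay Maf (7.77 ± 2.08), Bcl6 (4.05 ± 0.732), Foxp3 (2.59 ± 0.123), Prdm1 (2.01 ± 0.577) and Rora (0.534 ± 0.0560), of which Foxp3 and Prdm1 overlapped.

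**Figure D4:**
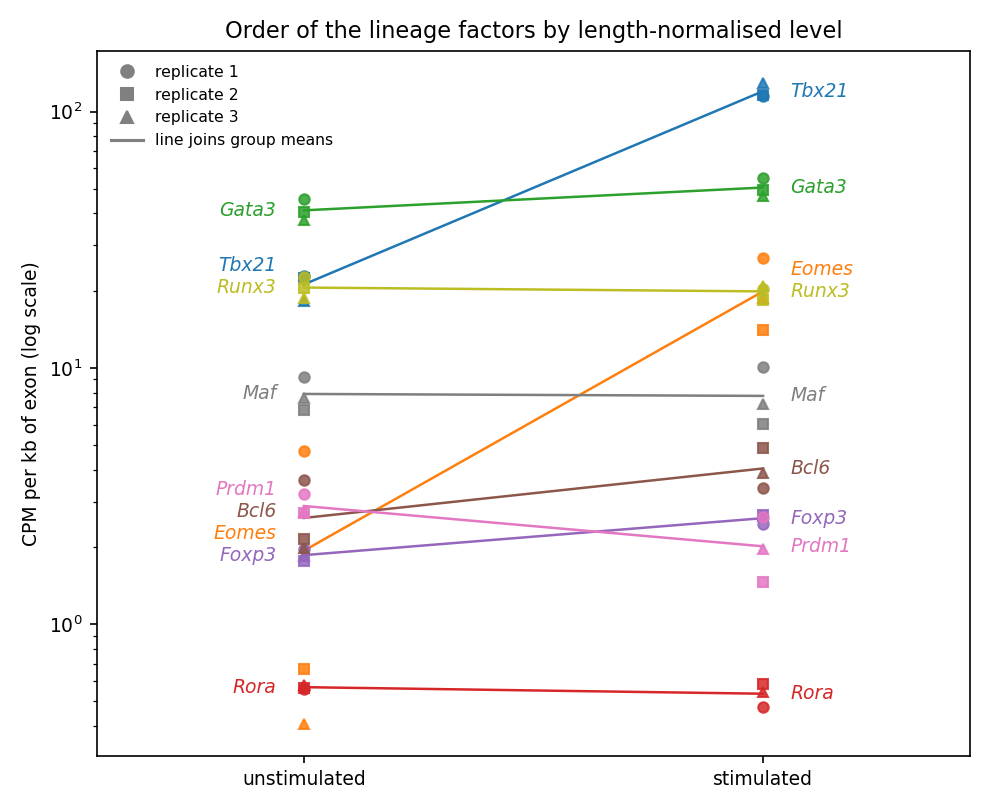
CPM per kb of exon (log scale) for each factor in the 3 unstimulated and 3 stimulated libraries, with lines joining group means. Tbx21 passes Gata3, from 21.1 against 41.1 at rest to 120.1 against 50.5 after stimulation, and Eomes rises to the level of Runx3.

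Ratios between factors known to oppose or replace each other do not depend on the scaling between libraries. Tbx21 over Gata3, the axis of Th1 against Th2, was 0.504, 0.553 and 0.484 at rest and 2.08, 2.34 and 2.76 after stimulation, so Gata3 exceeded Tbx21 in all 3 resting libraries and Tbx21 exceeded Gata3 in all 3 stimulated ones. On the log2 scale the ratio rose by 2.21, with no overlap (two-sided exact permutation p = 0.1, the smallest that this design allows, or 0.12 after Benjamini-Hochberg adjustment over 6 pairs). Tbx21 over Bcl6 was 6.25, 10.4 and 9.24 at rest and 33.7, 24.0 and 33.3 after stimulation (exact permutation p = 0.1, adjusted 0.12). Prdm1 over Bcl6 was 0.878, 1.27 and 1.38 at rest and 0.766, 0.300 and 0.506 after stimulation, again without overlap (exact permutation p = 0.1, adjusted 0.12). No pair can pass 0.05 with 3 libraries against 3.

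Of the other 3 ratios, Runx3 over Gata3 was 0.497, 0.505 and 0.497 at rest and 0.369, 0.371 and 0.446 after stimulation, and Rora over Foxp3 went from 0.283, 0.320 and 0.315 to 0.194, 0.219 and 0.205 (exact permutation p = 0.1 and adjusted 0.12 for each). The groups did not overlap in either of these ratios. Tbx21 over Eomes was 4.85, 33.3 and 44.7 at rest and 4.27, 8.29 and 6.91 after stimulation, with unstimulated replicate 1 inside the stimulated range (exact permutation p = 0.3, adjusted 0.30). Tbx21 exceeded Eomes in all 6 libraries.

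Relatives of the factors within their gene families went in both directions. Among 4 tested T-box genes, Tbx6 fell from 7.19 ± 1.40 to 0.267 ± 0.119 CPM (SD, n = 3, as for all means here), and Mga, a large T-box protein of the MYC network, rose from 110.4 ± 26.3 to 208 ± 25.8 CPM. Of the GATA genes, Gata1, the erythroid and mast cell factor, went from 8.11 ± 2.31 to 5.27 ± 0.701 CPM and was called as lower (log2 -0.62, edgeR adjusted p = 0.023). That call was lost without unstimulated replicate 1 (edgeR adjusted p = 0.077) and without stimulated replicate 2 (0.090), and without both libraries numbered 1 (0.089) or 2 (0.0998), within a range over the alternatives of 0.0050 to 0.10.

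In the FOXP family, Foxp4 increased from 72.1 ± 8.99 to 248 ± 19.0 CPM and Foxp1, a quiescence factor of naive T cells, rose from 174 ± 12.5 to 212 ± 13.8 CPM, a call that was lost with library size alone as the scaling (edgeR adjusted p = 0.13, range over the alternatives 0.00065 to 0.13). Maf was not called, whereas all 3 small MAF genes that were tested rose: Maff from 2.08 ± 0.108 to 19.6 ± 1.84 CPM, Mafg from 26.7 ± 2.36 to 107 ± 0.993 CPM and Mafk from 31.8 ± 4.35 to 125 ± 9.34 CPM. These lack the activation domain of c-MAF. Around Runx3, Runx1 fell from 93.1 ± 4.85 to 55.8 ± 5.60 CPM and Runx2 rose from 3.21 ± 0.522 to 14.8 ± 1.05 CPM. Of the PRDM genes, Prdm4, Prdm11 and Prdm15 were among those that rose, Prdm1, Prdm2 and Prdm10 fell, and Prdm9 and Prdm16 were not called. Prdm4 rose from 36.6 ± 1.58 to 80.8 ± 5.21 CPM, Prdm15 rose from 18.2 ± 1.47 to 58.7 ± 4.91 CPM and Prdm10 fell from 13.4 ± 3.88 to 4.50 ± 0.762 CPM. Prdm16 (9.13 ± 4.80 and 16.3 ± 5.42 CPM) was called as higher in 4 alternatives, among them the fit without unstimulated replicate 1 (edgeR adjusted p = 0.0024, range over the alternatives 1.7e-05 to 0.27). Bcl6b was called as higher but stayed below 1 CPM in both groups (0.0842 ± 0.0792 and 0.549 ± 0.163 CPM).

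The target and marker genes of each lineage were counted from lists of textbook genes, beside 38.4% of all genes tested that rose and 39.1% that fell. These lists were chosen with earlier results of these data known, so the counts and medians describe the lists and test no lineage. Of 17 Th1 genes, 9 rose and 6 fell. Ifng, the Th1 cytokine, rose from 0.316 ± 0.115 to 67.8 ± 9.68 CPM, Tnf rose from 4.87 ± 0.343 to 346 ± 39.3 CPM and Lta, which encodes lymphotoxin alpha, rose from 14.7 ± 0.435 to 364 ± 8.82 CPM. Other genes of the list fell. Stat4, which carries the IL12 signal, fell from 188 ± 15.1 to 20.5 ± 1.85 CPM, Ifngr1, a chain of the interferon gamma receptor, fell from 318 ± 52.5 to 25.1 ± 6.56 CPM, and the chemokine receptor Cxcr3 fell from 133 ± 5.58 to 54.8 ± 6.70 CPM.

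Of 20 tested Th2 genes, 16 rose and none fell in edgeR's test, nor at an unadjusted p under 0.05, nor in DESeq2 or limma-voom. Other settings called some as lower: with library size alone as the scaling, 2 fell (Il4ra and Bhlhe41), as they did without both libraries numbered 1. Without unstimulated replicate 3, Il4ra fell, and without stimulated replicate 1, Bhlhe41 fell. The median log2 fold change of the list was 3.73, and that of Gata3, which is not on it, was 0.30. Of the genes on this list, 3 are also on another list here, Il4 among them. The median therefore describes the list and does not measure a Th2 programme. Stat5a, a signal carrier of IL2, rose from 63.3 ± 14.0 to 983 ± 45.9 CPM, Gfi1, a repressor that supports Th2 growth, rose from 89.3 ± 3.34 to 296 ± 10.7 CPM, and the cytokine gene Csf2 rose from 0.832 ± 0.249 to 66.2 ± 12.2 CPM. Il9, Areg and Il3 each had 3 or fewer reads in all resting libraries together. With these at the ratio of their counted reads the median was also 3.73, since all 3 (log2 6.81, 7.23 and 10.1 in edgeR) lay above it.

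Of 14 tested Th17 genes, 10 rose and 3 fell, with a median log2 fold change of 1.31 beside -0.08 for Rora. Ahr, the aryl hydrocarbon receptor, rose from 1.90 ± 0.869 to 28.1 ± 3.04 CPM, Nfkbiz rose from 16.3 ± 1.18 to 60.2 ± 4.09 CPM and Batf rose from 63.0 ± 2.63 to 163 ± 2.59 CPM. The receptors Ccr6, Il6ra and Tgfbr2 fell, from 1.88 ± 0.507 to 0.151 ± 0.0391 CPM, from 140.0 ± 13.4 to 21.6 ± 2.21 CPM and from 258 ± 18.6 to 87.0 ± 1.39 CPM. Of 20 regulatory T cell genes, 11 rose and 7 fell. Il2ra, the high-affinity chain of the IL2 receptor, rose from 301 ± 37.9 to 1487 ± 131 CPM, Tnfrsf18, which encodes GITR, rose from 119 ± 8.44 to 351 ± 12.2 CPM and Tgfb1 rose from 144 ± 4.80 to 315 ± 5.94 CPM. Ctla4 fell from 207 ± 4.47 to 81.1 ± 4.64 CPM, Nt5e, which encodes CD73, fell from 32.6 ± 1.59 to 10.3 ± 0.930 CPM and Foxo3 fell from 101 ± 7.24 to 48.6 ± 0.881 CPM.

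Of 19 tested follicular helper genes, 8 rose and 9 fell, with a median log2 fold change of -0.04. The list mixes genes that these cells gain with genes that they lose, so its counts and median give no direction for the lineage. Il4, which is also on the Th2 list, rose from 7.01 ± 2.46 to 395 ± 97.6 CPM, and 2 surface receptors increased, Pdcd1 from 4.77 ± 1.24 to 75.9 ± 9.48 CPM and Icos from 81.5 ± 2.28 to 249 ± 15.3 CPM. Tcf7, which encodes TCF-1, fell from 1379 ± 90.1 to 111 ± 4.41 CPM. Klf2, a factor of quiescence and trafficking that restrains follicular cells, fell from 329 ± 15.3 to 8.43 ± 0.378 CPM, and Selplg, a selectin ligand that these cells normally lose, fell from 721 ± 2.48 to 71.1 ± 6.56 CPM.

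Of 16 tested cytotoxic effector genes, 10 rose and none fell in edgeR's test. At an unadjusted p under 0.05 and in limma-voom, 11 rose and none fell. Gzmk, which had too few reads for edgeR's filter, was called as lower by DESeq2 and by edgeR with no filter. Zeb2, a partner of T-bet in effector cells, rose from 1.30 ± 0.541 to 64.9 ± 6.58 CPM, Bhlhe40 rose from 54.6 ± 6.17 to 368 ± 21.4 CPM and the granzyme inhibitor Serpinb9 rose from 18.1 ± 2.95 to 139 ± 4.40 CPM. Klrg1 was under the count needed for testing, with at most 0.0689 CPM in any library.

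**Figure D5:**
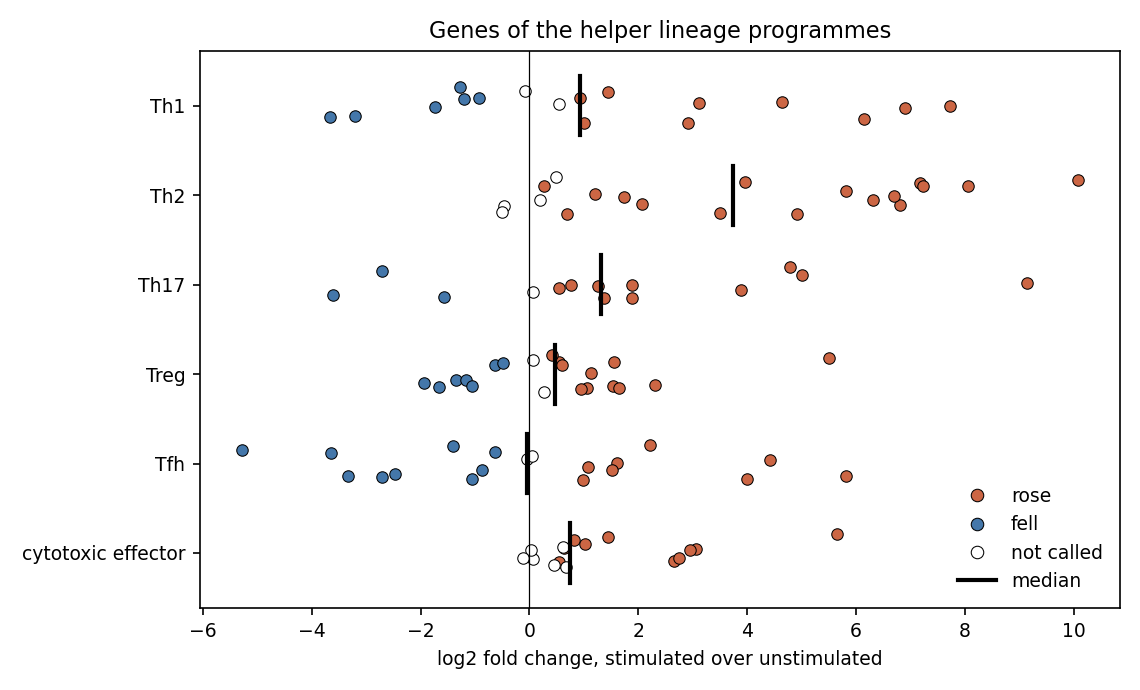
Log2 fold change of each tested gene of 6 programme lists, coloured by its edgeR call, with the median of each list as a black bar. The Th2 list has its median at 3.73 and no gene called as lower. The Tfh (follicular helper) list, which mixes genes that these cells gain and lose, has its median at -0.04 and 9 genes called as lower.

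Partners and direct regulators of the factors split in both directions, 20 of 40 tested genes higher and 14 lower, or 50.0% and 35.0%, beside 38.4% and 39.1% of all genes tested. Zfpm1, which encodes FOG-1, a cofactor that binds GATA proteins, rose from 51.8 ± 2.34 to 147 ± 3.74 CPM, and Gfi1 and Batf, already given, were the other two with the smallest p among those that rose. Fli1, an ETS factor, fell from 127 ± 5.08 to 23.4 ± 2.12 CPM. Zbtb7b, which encodes ThPOK, the factor that holds CD4+ identity against Runx3, fell from 206 ± 12.6 to 83.0 ± 5.11 CPM, and Mta3, a corepressor that binds BCL6, fell from 68.6 ± 3.81 to 21 ± 1.61 CPM.

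The genes whose profiles over the 6 libraries lay nearest to each factor were found by the Euclidean distance between centred log2 CPM profiles, among 10756 tested genes of at least 1 CPM. Ankrd13b and Relb, a subunit of NF-kB, lay nearest to Tbx21, at distances of 0.169 and 0.177. Eomes had no close match: its nearest were Stra6 at 1.22 and the cytokine gene Il21 at 1.41. Stra6 shared the uneven resting level, at 9.51, 3.32 and 0.974 CPM, and stood at 94.4, 64.8 and 42.9 CPM after stimulation. Gata3 lay nearest to Dennd5a (0.0624) and Nbas (0.0643), Rora to Ggcx (0.0780) and Ptdss2 (0.113), and Foxp3 to Pacsin2 (0.0589) and Tmem177 (0.0950). Bcl6 lay nearest to Tsg101-ps (0.270) and Adap1 (0.374), and Adap1 too was highest at rest in replicate 1, at 51.8, 33.6 and 28.0 CPM. Prdm1 lay nearest to Cdc42bpg (0.149) and Samhd1 (0.211), Maf to Trav16n (0.272) and Stk38l (0.304), and Runx3 to Map3k14 (0.0404) and Zfp628 (0.0750).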

How the data were processed

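RNA of 6 samples was sequenced after TruSeq preparation, per the labels' protocols. The deposited table holds raw read counts per Ensembl gene for all 6 libraries. Per the submitters' processing notes the tools named are STAR 2.5.2a, HTSeq and DESeq2, with GRCm38. No source used here gives the annotation release or the strand setting. Of 48440 genes, 26036 had no read. Symbols came from GENCODE M21, which named 48058 identifiers.

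Counts were filtered with filterByExpr and scaled by TMM in edgeR 4.0.16 (R 4.3.3). The quasi-likelihood test with robust dispersion, two-sided, compared 3 stimulated with 3 unstimulated libraries, with Benjamini-Hochberg adjustment over 13314 genes and a threshold of 0.05. glmTreat tested changes past 2-fold. Levels are CPM with TMM scaling, and levels between genes are CPM per kb of merged exons. The edgeR quasi-likelihood fit was run on simulated data with 200 changed genes, where 10320 were called in the real data. The other fits were not run on simulated data. Alternatives used DESeq2 1.42.0, limma 3.58.1 (voom), other scalings and filters, a stricter threshold, the replicate number as a block, and libraries left out.

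The 9 factors and all gene lists were chosen with earlier results of these data known. Of each list, the 3 genes with the smallest p in each direction are named. Of each family, those of at least 1 CPM in a group are named, apart from a few that are not reported here, and of nearest profiles 2 per factor. The ratio tests were exact permutations over 6 libraries. Promoter windows came from RefSeq (GRCm38.p6), and the last 50 transcribed bases were left out. No per-sample column was left unmapped.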

Additional observations from a re-analysis of the deposited data

How the results depend on the processing

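Counts over all genes tested stayed within 1.5 times of 5113 higher and 5207 lower under all 18 alternatives, at 4391 to 5405 higher and 4467 to 5818 lower. The number of lineage factors called was less stable. Against 5 that rose, 3 rose with library size alone as the scaling, 3 with no filter on low counts and 2 at an adjusted p of 0.01. With libraries left out, between 1 and 5 rose. Against 1 that fell, 0 fell at an adjusted p of 0.01, and 0 or 1 fell with libraries left out. The lineage factors that were called with all 6 libraries and TMM kept their direction in the alternatives run, while Maf and Runx3, not called, changed sign in some alternatives. The direction of all 6 ratios was kept in each alternative run. The spread between libraries limits the precision of Eomes at rest, with 616 reads in unstimulated replicate 1 beside 88 and 54 in replicates 2 and 3. Low counts limit that of Flicr, with 32 reads in 1 stimulated library.

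The labels do not say that a replicate number marks a shared animal. Deviations from the group means correlated between same-numbered libraries at 0.361, 0.0845 and 0.380, and each library correlated best with its own number, a hint from the data only. With the replicate number as a block, 5326 genes rose and 5516 fell, 4 factors rose and 1 fell. Bcl6 was the factor not called under that replicate block (edgeR adjusted p = 0.15, range over the alternatives 2.6e-06 to 0.29). Among Th2 genes, 1 (Bhlhe41) was called as lower in the same fit.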
